A study of Arabidopsis thaliana with 12 samples.

Results

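The comparison described here sets seedlings of the Arabidopsis thaliana single mutant sco3 against seedlings of Col-0, the reference line of the study. Its members were chosen by genotype label: the 3 arrays labelled sco3 and the 3 arrays labelled Col-0, which are 6 of the 12 arrays of the series. All 6 carry an intact PHYB gene, which encodes the red light photoreceptor phytochrome B, and they differ by the sco3 mutation. The other 6 arrays, 3 of the double mutant sco3phyb and 3 of the single mutant phyb, were used to estimate the spread and to ask whether a change differed where PHYB was lost. The labels do not name the sco3 or phyb alleles, the lines they were made in or the number of seedlings behind an RNA sample. All seedlings were 4 days old, were grown on Murashige and Skoog agar under 16 h of light and 8 h of dark, and were extracted whole. Each genotype had 3 biological replicates, hybridised to Affymetrix ATH1 arrays, which measure transcripts through sets of short probes.

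SCO3 (SNOWY COTYLEDON 3) encodes a plant-specific protein of the microtubule-associated QWRF family that is found at the periphery of peroxisomes. Mutants of the snowy cotyledon class have pale cotyledons and are studied for chloroplast development in the embryonic leaves, while true leaves are less affected. Chloroplasts hold a small genome of their own, and most of the proteins that transcribe, edit, translate, fold and assemble its products are encoded in the nucleus.

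Neither SCO3 nor PHYB was among the named genes, so the mutations themselves were not checked on the arrays and the genotypes rest on the labels. Of 22746 probe sets tested, 13513 were annotated to 1 gene, and these gave 13355 named genes with 1 probe set each. Median signals ran from 4.53 to 4.55 on the log2 scale over the sco3 arrays and from 4.56 to 4.61 over the Col-0 arrays. Replicates were tighter in sco3, where the mean absolute deviation from the genotype mean was 0.115 to 0.137 per array, than in Col-0, where it was 0.149 to 0.214. Col-0 replicate 3 stood apart: its mean correlation with the other Col-0 arrays was 0.978, against 0.986 for Col-0 replicates 1 and 2 with theirs. For 48.8% of all named genes it was the Col-0 array farthest from the sco3 mean, and for 426 of the 609 named genes called below. Many list medians and calls that it moves are given without it as well, but not all, so values given only with it may also move. Whole seedlings were extracted, so fewer cells of a type and less RNA per cell cannot be told apart.

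With limma fitted to all 12 arrays, 1130 probe sets (4.97% of those tested) differed between sco3 and Col-0 at a Benjamini-Hochberg adjusted p under 0.05, the threshold behind the word "called" here. Of these, 639 (2.81%) were higher in sco3 and 491 (2.16%) were lower, and 263 (1.16%) differed by at least 2-fold. After each array was centred on its median, 857 of 1271 called probe sets were higher and 414 lower, so the balance of rises and falls depends on scaling. Among named genes 609 (4.56%) were called, 343 higher (2.57%) and 266 lower (1.99%). Their median absolute change was 0.72 on the log2 scale, and the 3 sco3 values lay wholly above or below the 3 Col-0 values in 603 of the 609, as they did in 2897 (21.7%) of all named genes. When only the 6 sco3 and Col-0 arrays were fitted, so that the quieter phyb and sco3phyb arrays no longer entered the estimate of the spread, 117 probe sets (0.514%) passed, of which 115 (0.506%) were also called with 12 arrays. A fit with 1 variance per genotype called 229 named genes (1.71%), and leaving out Col-0 replicate 3 called 449 (3.36%), 356 of them among the 609. Both the 12-array and the 6-array fit called 51 named genes (0.382%), 20 higher (0.15%) and 31 lower (0.232%) in sco3. None of the 51 had overlapping groups, and 42 of them were called in each of the 12 fits that left out 1 array.

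Most of the genes that fell furthest in both fits carry only a locus number in the annotation. The largest fall was that of AT3G19515. Its log2 signal was 3.21, 3.58 and 3.25 in sco3 seedlings, against 6.32, 6.48 and 6.51 in Col-0 seedlings, a difference of -3.09 ± 0.18 (SE), or 8.50-fold lower (limma adjusted p = 9.67e-06). The groups lay far apart, and the gene is the fifth measured gene before SCO3 on chromosome 3. AT3G16750, also on chromosome 3, read 2.29, 2.58 and 2.29 in sco3, near the bottom of the array's range, against 3.77, 4.15 and 3.98 in Col-0 (difference -1.58 ± 0.12, adjusted p = 0.000129). AT5G02540 was at 4.06, 4.49 and 4.52 in sco3 and at 5.81, 6.46 and 6.74 in Col-0, which is 3.95-fold lower (adjusted p = 0.0101).

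Named genes with a known role were among these falls. AT3G13610, annotated as F6'H1, encodes the hydroxylase that makes the precursor of scopoletin, a coumarin that plants release from roots under iron shortage. Its signal was 3.73, 3.75 and 3.80 in sco3, against 5.24, 5.37 and 6.46 in Col-0, 3.82-fold lower (log2 difference -1.93 ± 0.27, adjusted p = 0.00318). The sco3 arrays were within 0.1 of each other while Col-0 replicate 3 was more than 1 unit above the other Col-0 arrays, and the gene was called in all 12 fits that left out an array. bHLH121, a transcription factor of the iron deficiency response, read 6.39, 6.66 and 6.54 in sco3 and 7.62, 8.05 and 7.73 in Col-0 (difference -1.27 ± 0.14, adjusted p = 0.00105), and it lies 16 measured genes past SCO3. RALFL27, a small secreted peptide of the RALF-like family, read 5.06, 4.75 and 4.71 in sco3 against 6.24, 6.0 and 7.01 in Col-0, 2.99-fold lower (adjusted p = 0.0182). RALFL27 lost the call in 2 of the 12 fits with an array left out. The other genes among the 15 largest falls were AT3G21770, AT1G74460, AT3G22970, AT5G12420, AT5G12050, AT3G62040, AT1G36940, AT5G05790 and AT3G28940, at log2 differences of -1.83, -1.62, -1.56, -1.54, -1.40, -1.31, -1.24, -1.19 and -1.17.

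The largest rise in both fits was that of AT3G16175. It read 6.34, 5.67 and 5.93 in sco3, against 4.33, 3.90 and 3.91 in Col-0, 3.82-fold higher (log2 difference 1.94 ± 0.20, adjusted p = 0.000635). AT1G15290 is of the REC family, named for its part in setting the share of a cell that chloroplasts fill; it was placed there by locus, since the annotation gives no name. Its signal was 7.29, 7.06 and 7.13 in sco3 and 6.05, 5.88 and 5.49 in Col-0, 2.56-fold higher (difference 1.35 ± 0.16, adjusted p = 0.00134). The list of that family was written after values of this comparison had been seen, so its count is a description. Of the 3 named members of the list 2 rose, where 2.57% of all named genes did. The other, AT1G01320, rose by 0.70 ± 0.18 (limma adjusted p = 0.0469), a call that held in only 1 of the 12 fits with an array left out. CCS, the chaperone that loads copper into superoxide dismutase, was at 8.98, 9.29 and 9.20 in sco3, against 8.28, 8.14 and 8.17 in Col-0 (difference 0.96 ± 0.14, adjusted p = 0.00395). AT3G16120 was the tightest of the rises, with 6.24, 6.22 and 6.21 in sco3 and 4.94, 4.99 and 4.93 in Col-0, 2.41-fold higher (adjusted p = 0.00316). The remaining rises among the 15 were AT3G44070, AT1G12070, AT3G04650, AT5G16980, AT3G21300, AT3G27110, AT1G72070, AT3G51870, AT5G04880, AT3G21020 and AT2G35170, at 1.41, 1.31, 1.28, 1.25, 1.21, 1.18, 1.11, 1.02, 1.01, 0.96 and 0.92. AT3G21020 and AT5G04880 are annotated as pseudogenes. Among these rises AT3G16175, AT3G16120, AT3G21300 and AT3G21020 lie within 300 measured genes of SCO3. Genes entered the 15 largest falls and rises only if the sco3 and Col-0 values did not overlap, so the gaps in the plot follow from that choice. Of all named genes 21.7% had no overlap.

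**Figure D1:**
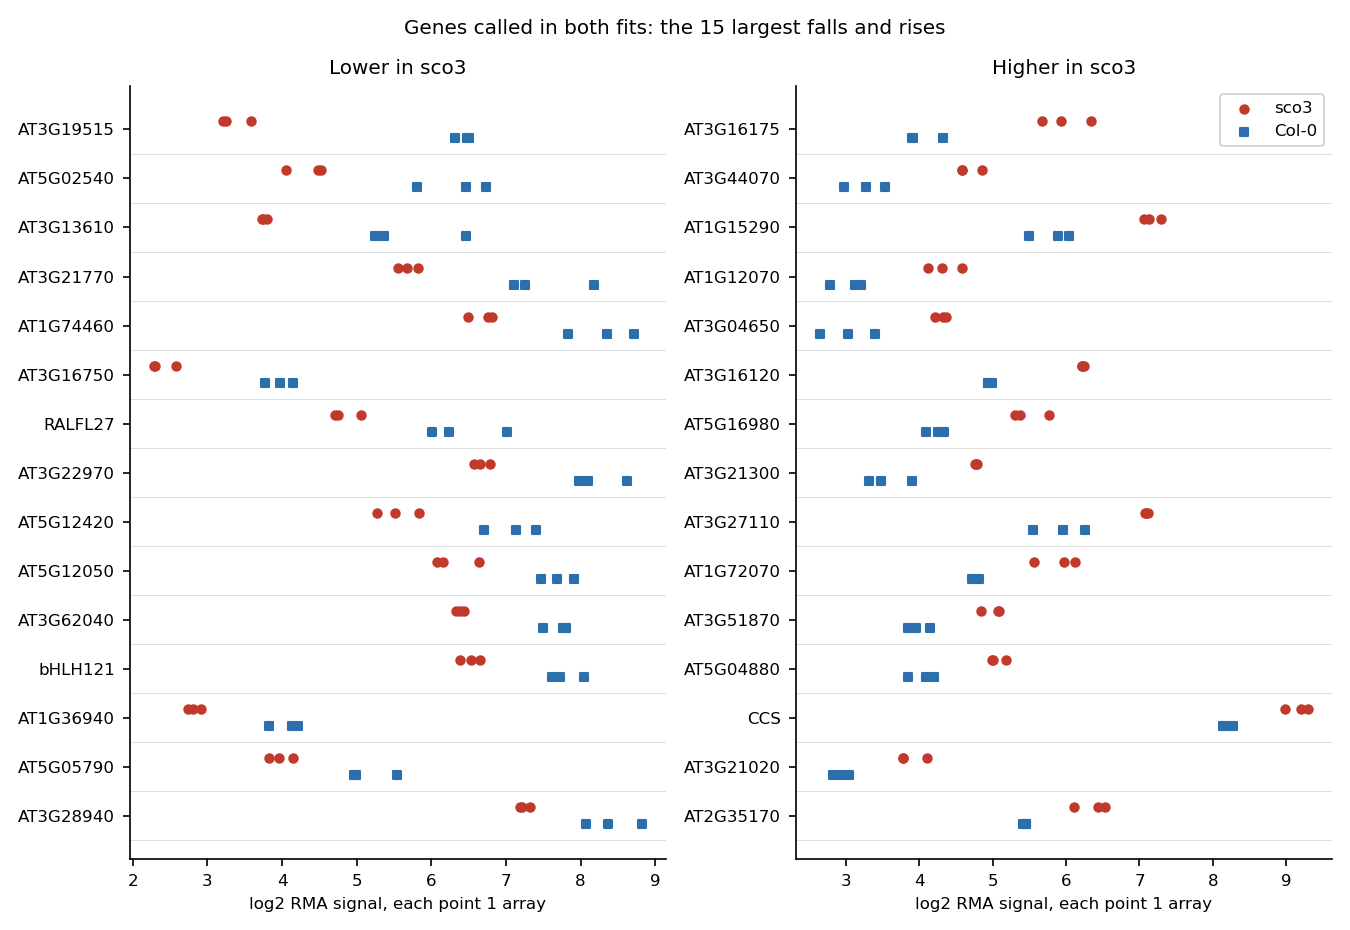
Log2 RMA signal of the 15 genes that fell most and the 15 that rose most among those called in both fits; each red circle is 1 sco3 array and each blue square 1 Col-0 array, with 3 of each per gene. Genes were chosen to have no overlap between the groups, and AT3G19515 has the widest gap, with a log2 difference of -3.09.

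Called genes were unevenly placed along the genome. Of the 51 named genes called in both fits, 28 lie on chromosome 3, which carries SCO3 and holds 2720 of the 13355 named genes. On chromosome 3, 6.73% of named genes were called in the 12-array fit and 1.03% in both fits, while the shares on chromosomes 1, 2, 4 and 5 were 3.31% to 4.46% and 0.138% to 0.293%. In a window that took in 300 measured genes before SCO3 and 300 past it, 54 of 600 (9%) were called and 13 in both fits, 4 higher and 9 lower. Of the 30 largest falls and rises described above, 9 lie in this window. AT3G19515 and AT3G19520, which are 5 and 4 measured genes before SCO3, both fell, by 3.09 and 0.95 on the log2 scale. The raised share reached well beyond that window. From the start of the chromosome to the 600th measured gene past SCO3, a limit chosen after the values were seen, 145 of 1578 genes were called (9.19%), 24 of them in both fits. F6'H1 lies within this longer stretch. Beyond the stretch 38 of 1142 were called (3.33%), 4 of them in both fits. Away from the 600 genes around SCO3, 555 of 12755 genes (4.35%) were called, among them 129 of 2120 on the rest of chromosome 3 (6.08%). Whether sequence carried along with the sco3 mutation has a part in this was not tested, and it cannot be told apart from an effect of the mutation with these genotypes.

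**Figure D2:**
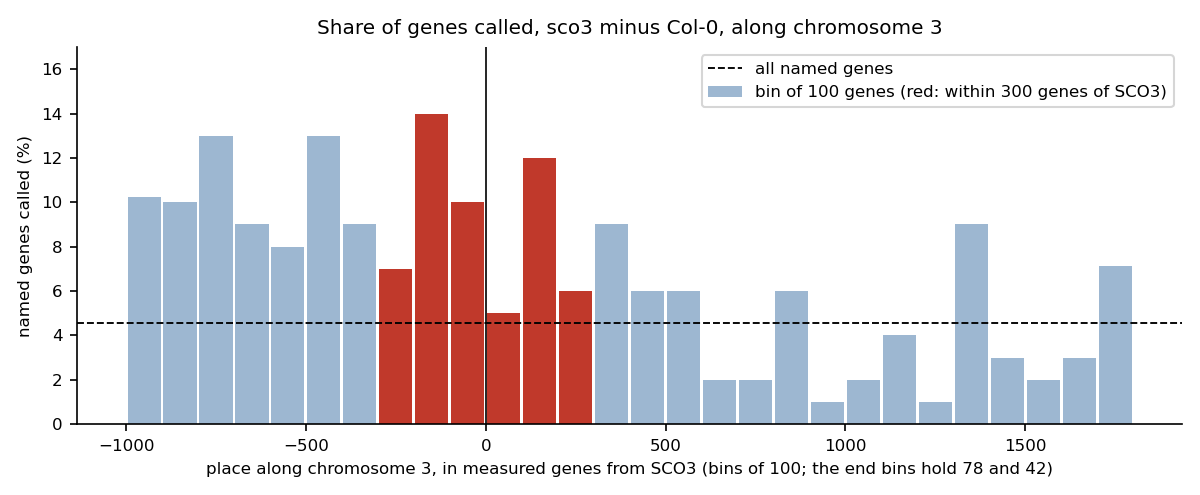
Share of named genes called in sco3 against Col-0 (12-array fit, percent) in bins of 100 measured genes along chromosome 3, counted from SCO3 at 0; red bars lie within 300 genes of SCO3 and the dashed line is the 4.56% of all named genes. Bins up to SCO3 hold 7% to 14% called genes and most bins far past it hold 1% to 4%.

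Some nuclear genes for the chloroplast's own gene expression machinery rose. The lists for plastid translation and protein folding, for plastid pentatricopeptide repeat proteins, for assembly of photosynthetic complexes, for thiamine and folate synthesis and for the REC family were written after values of this comparison had been seen, so their counts are descriptions. The lists written earlier for pentatricopeptide repeat proteins (2 named genes, median 0.17) and for plastid transcription and the nucleoid (1 named gene, -0.10) held no called gene. Earlier lists for plastid ribosomal proteins and translation and for chloroplast protein import and chaperones held no named gene. Of 15 named members of the translation and folding list, 7 rose and none fell, with a list median of 0.63 on the log2 scale, against 0.03 for all named genes, of which 2.57% rose. Of 17 plastid pentatricopeptide repeat proteins, which bind single chloroplast transcripts and direct their editing or processing, 5 rose and none fell, with a median of 0.61. No member of either list was called with the 6 arrays alone, and 3 of the 7 and 3 of the 5 lie on chromosome 3. Without Col-0 replicate 3 the medians were 0.35 and 0.41 and 7 and 4 members rose. With sco3 replicate 1, 2 or 3 left out, 3, 3 and 3 members of the first list and 2, 3 and 2 of the second rose; 1 member of the first list fell without sco3 replicate 1.

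Chaperonins of the Cpn60 type fold newly made chloroplast proteins. Cpn60beta2 read 7.74, 7.63 and 7.48 in sco3, against 6.86, 6.46 and 5.92 in Col-0, 2.30-fold higher (log2 difference 1.20 ± 0.19, limma adjusted p = 0.00485). Cpn60beta4, a subunit that serves the folding of a protein of the chloroplast NADH dehydrogenase-like (NDH) complex, was at 6.91, 6.77 and 6.64 in sco3 and at 6.06, 5.87 and 4.74 in Col-0 (difference 1.22 ± 0.25, adjusted p = 0.0195). The lowest Col-0 value of both genes was that of replicate 3, and so it was for all 7 members that rose. Cpn60beta3, another beta subunit, differed by -0.45 ± 0.14 with overlapping groups and was not called (adjusted p = 0.0869). The members of this list that rose without a name in the annotation were AT3G04550, AT5G55220, AT3G08740, AT5G66470 and AT2G24060, by 1.24, 1.02, 0.93, 0.84 and 0.70.

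Among the pentatricopeptide repeat proteins, CRR28, an editing factor for transcripts of the NDH complex, read 4.70, 4.33 and 4.35 in sco3, against 3.69, 3.67 and 3.18 in Col-0 (difference 0.95 ± 0.16, adjusted p = 0.00755). OTP84, another chloroplast editing factor, was at 4.81, 3.95 and 4.28 in sco3 and 3.59, 3.42 and 3.17 in Col-0 (difference 0.95 ± 0.23, adjusted p = 0.0372). CRR28 was called in all 12 fits with an array left out and OTP84 in 5. The unnamed members that rose were AT3G22150, AT3G59040 and AT5G46580, by 1.04, 0.97 and 0.97, while CRR21, at 1.09 ± 0.31, missed the threshold (adjusted p = 0.0604). In the list of nuclear NDH subunits and assembly factors all 9 named members had positive differences and 2 were called, CRR28 and CRR41. Of all named genes 4.56% were called. CRR41, which helps assemble the NDH complex, read 5.92, 5.87 and 5.44 in sco3 against 4.99, 4.83 and 4.73 in Col-0 (difference 0.89 ± 0.15, adjusted p = 0.00724).

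Assembly and cofactor genes followed the same direction with fewer calls. Of all named genes 2.57% rose. All 10 named members of the assembly list for photosystems, the cytochrome b6f complex and ATP synthase had positive differences, with a median of 0.34 (0.16 without Col-0 replicate 3), and 2 rose. One was PAM68, an assembly factor of photosystem II, at 7.54, 7.23 and 7.13 in sco3 and 6.82, 6.80 and 6.10 in Col-0 (difference 0.72 ± 0.18, adjusted p = 0.0366). The other, AT3G29185, rose by 0.52. Neither was called once Col-0 replicate 3, or any one sco3 array, was left out. Of 11 genes of tetrapyrrole and chlorophyll synthesis, 9 had positive differences (median 0.29, or 0.21 without Col-0 replicate 3) and 1 was called, GSA1, whose enzyme makes the first committed precursor. GSA1 read 7.58, 7.56 and 7.50 in sco3, against 7.04, 6.71 and 6.45 in Col-0, 1.76-fold higher (adjusted p = 0.0105), and it was called in all 12 fits with an array left out. Of 7 thiamine and folate genes 3 rose (median 0.47, or 0.35 without Col-0 replicate 3): THIC, the chloroplast enzyme for the pyrimidine part of thiamine, by 0.99 ± 0.21, FOLB1, an aldolase of folate synthesis, by 1.0 ± 0.19, and AT3G07270, which has no name in the annotation, by 0.84 ± 0.12. The last read 7.68, 7.68 and 7.56 in sco3 and 6.90, 6.90 and 6.59 in Col-0. It was called in both fits (limma adjusted p = 0.00307 with 12 arrays and 0.0491 with 6). AT3G07270 and FOLB1 lie on chromosome 3, before SCO3.

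**Figure D3:**
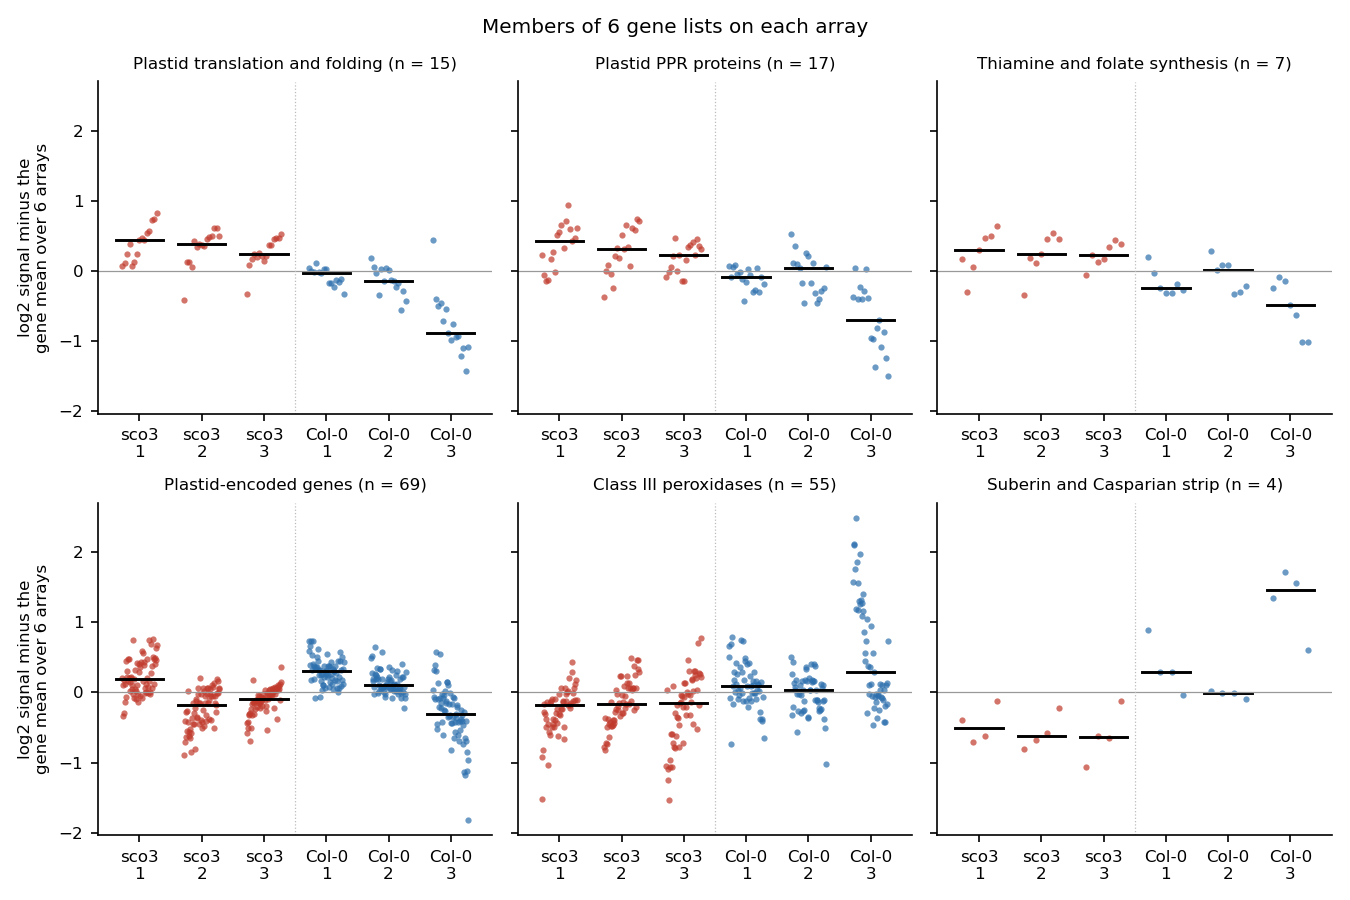
Log2 signal of every named member of 6 gene lists on each of the 6 arrays, minus that gene's mean over the 6 arrays; points are genes, red for sco3 and blue for Col-0, and black bars are medians per array. In the translation, pentatricopeptide repeat (PPR) and vitamin lists the 3 sco3 medians lie above those of Col-0, in the peroxidase and suberin lists below, and Col-0 replicate 3 is the farthest Col-0 array in all 5.

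No rise was called among the nuclear genes for the photosynthetic complexes themselves. None of 3 named antenna genes, 8 nuclear subunits of the photosystems, electron transport and ATP synthase, or 4 Calvin cycle genes was called by limma (lowest adjusted p 0.0516, 0.117 and 0.162), and their medians were 0.01, -0.07 and 0.14. Without Col-0 replicate 3 these medians were -0.30, -0.12 and 0.04, still with no call. The named genes were 3 of 27, 8 of 39 and 4 of 24 loci written for these lists. PSAN, a photosystem I subunit, read 12.59, 12.52 and 12.55 in sco3 and 12.57, 12.58 and 12.52 in Col-0. RCA, the rubisco activase used as the mesophyll marker, was at 12.95, 13.11 and 13.05 in sco3 and 12.98, 12.99 and 12.89 in Col-0. In both genes the groups overlapped, with differences of -0.00 ± 0.09 and 0.08 ± 0.09. LHCB4.2, a minor antenna protein of photosystem II, was lower on every sco3 array, at 11.81, 11.88 and 11.89 against 12.30, 12.25 and 12.17 in Col-0, and stayed just outside the threshold (adjusted p = 0.0516).

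Of 69 genes encoded in the chloroplast genome, 2 fell and none rose, with a median difference of -0.07, which was -0.24 without Col-0 replicate 3. Of all named genes 1.99% fell, so 2 of 69 is near the background. Both encode small subunits of photosystem II. psbK was at 10.15, 10.08 and 10.04 in sco3, against 11.08, 10.76 and 10.81 in Col-0, 1.73-fold lower (log2 difference -0.79 ± 0.12, limma adjusted p = 0.00482), and kept its call in all 12 fits with an array left out. psbT was at 8.05, 8.05 and 7.91 in sco3 and at 8.73, 8.53 and 8.72 in Col-0 (difference -0.65 ± 0.16, adjusted p = 0.0328), but was called in 7 of the 12 fits with an array left out. It lost the call without Col-0 replicate 3 (adjusted p = 0.0685) and without any one sco3 array, and neither gene was called with the 6 arrays alone. The other 67 ranged from -0.84 for ndhK to 0.72 for psaA, and the mean level of the 69 genes varied from array to array, from 9.27 to 9.73 in sco3 and from 9.19 to 9.81 in Col-0. The groups thus overlapped for the set as a whole. None of 16 mitochondrion-encoded genes was called (median 0.13).

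Some genes for wall and barrier functions of roots fell. Class III peroxidases act in the wall on lignin, suberin and reactive oxygen, and 4 of 55 named members fell and none rose, with a median of -0.31 and 39 negative differences, where 1.99% of all named genes fell. This list, like that of suberin and the Casparian strip, was completed after values had been seen. AT3G21770, a member by locus, read 5.68, 5.83 and 5.55 in sco3, against 7.26, 7.11 and 8.18 in Col-0, 3.56-fold lower (difference -1.83 ± 0.22, adjusted p = 0.00132). It is the only one of the 4 called in both fits and lies within 300 measured genes of SCO3. AT5G66390, annotated as peroxidase 72, was at 6.54, 6.40 and 6.44 in sco3 and at 7.13, 7.11 and 8.60 in Col-0 (difference -1.15 ± 0.30, adjusted p = 0.0489), with Col-0 replicate 3 well above the other Col-0 arrays. AT5G15180 and AT2G37130 fell by 1.10 and 0.91. Without any one sco3 array 1 member of the family fell, and without Col-0 replicate 3 4 fell and 1 rose.

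Suberin and the Casparian strip seal the root endodermis. Of the 33 loci written for that list 4 were named. Of these 3 fell, where 1.99% of all named genes did. The list median was -1.28, and -0.78 without Col-0 replicate 3. AT2G48130, AT1G61590 and AT2G39430 differed by -1.50 ± 0.36, -1.33 ± 0.31 and -1.23 ± 0.29. AT1G61590 shows the spread: 6.39, 6.42 and 6.48 in sco3, against 7.38, 7.09 and 8.80 in Col-0. The groups did not overlap in any of the 3, as in 21.7% of all named genes. None of the 3 was called with the 6 arrays alone or with any one sco3 array left out, while 2 were called without Col-0 replicate 3. GSO1, the receptor-like kinase on both this list and the endodermis marker list, was at 5.48, 5.39 and 5.48 in sco3 and 5.56, 5.51 and 6.21 in Col-0 and was not called (difference -0.31 ± 0.21, adjusted p = 0.407), and its difference was -0.09 without Col-0 replicate 3.

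Root hair markers had negative differences that did not pass the test. Of 13 root hair marker genes 2 were named, the expansins EXPA7 and EXPA18, and neither was called. EXPA7 was at 5.22, 5.60 and 4.36 in sco3, against 5.81, 5.85 and 7.38 in Col-0 (difference -1.29 ± 0.37, adjusted p = 0.065). EXPA18 read 6.0, 5.77 and 5.20 in sco3 and 6.29, 5.99 and 7.77 in Col-0 (difference -1.03 ± 0.38, adjusted p = 0.139). The mean level of the pair ran from 4.78 to 5.69 over sco3 arrays and from 5.92 to 7.58 over Col-0 arrays, and its median difference was -0.62 without Col-0 replicate 3. No marker of the root stele and meristem, phloem, xylem or epidermis was named, and the guard cell (3 genes) and shoot meristem (1 gene) markers had medians of 0.07 and 0.03, or -0.08 and 0.03 without Col-0 replicate 3. What part a different share of root cells has in the falls of peroxidase, suberin and coumarin genes was not tested.

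Iron and wall-loosening genes held 2 falls in each list. Of 8 genes for iron uptake, coumarins and ferritins 2 fell (median -0.43, with 7 negative differences), and the median was -0.46 without Col-0 replicate 3. They were F6'H1, described above, and AT1G47400, at 2.15, 2.31 and 2.47 in sco3 and 2.97, 3.52 and 2.95 in Col-0 (difference -0.84 ± 0.16, adjusted p = 0.0138). PYE, a regulator of the iron deficiency response, differed by -0.59 ± 0.17 (adjusted p = 0.0663). Of 29 expansins and xyloglucan endotransglucosylases, which loosen or remodel walls, 2 fell, where 1.99% of all named genes did: XTH18 by 0.97 ± 0.24 and XTH19 by 0.77 ± 0.16. XTH18 was called in 4 of the 12 fits with an array left out and not without Col-0 replicate 3 (adjusted p = 0.0871), and XTH19 in 11. XTH19 read 5.51, 5.81 and 5.97 in sco3, against 6.42, 6.47 and 6.70 in Col-0. None of 27 pectin and cellulose genes was called (limma, lowest adjusted p 0.127), although 2 fell without Col-0 replicate 3.

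**Figure D4:**
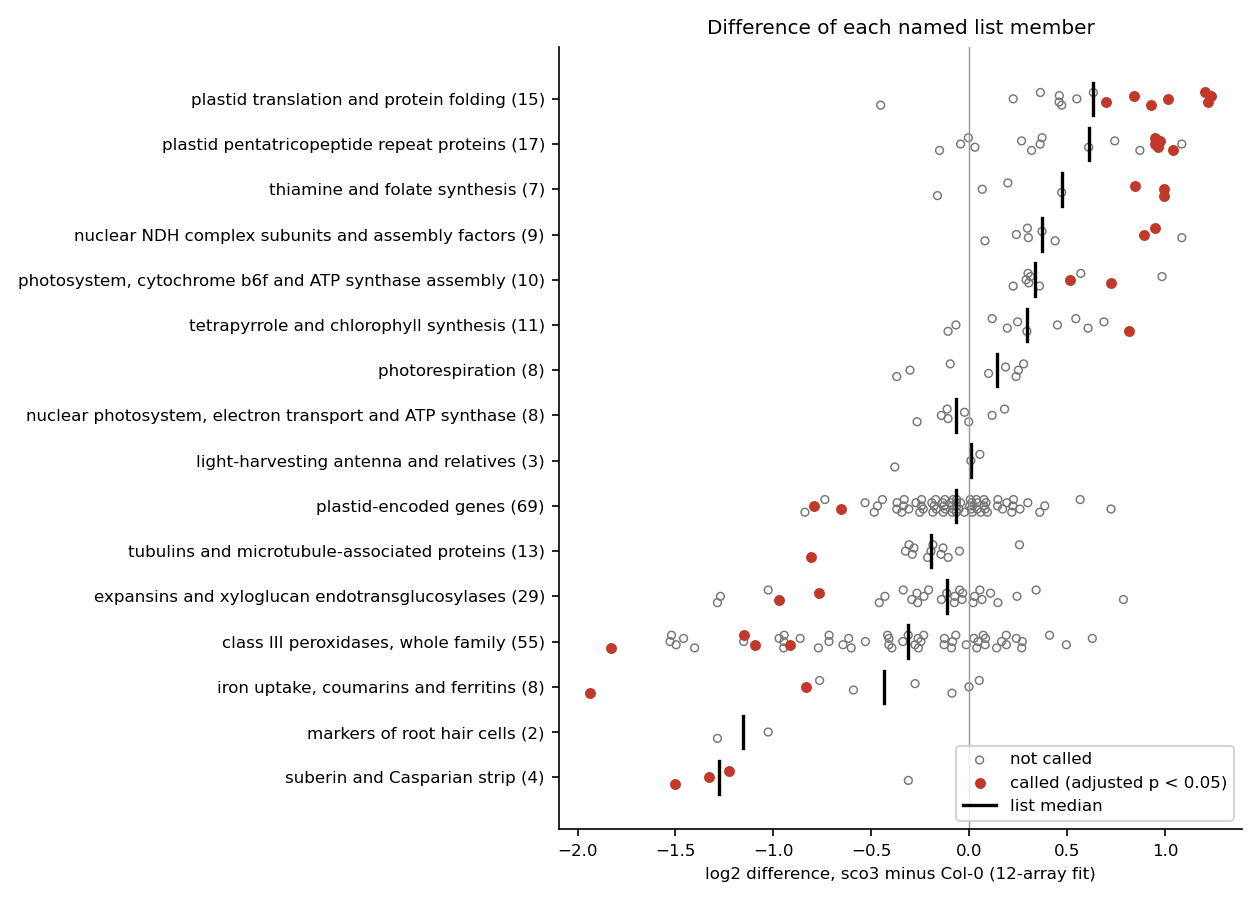
Log2 difference between sco3 and Col-0 (12-array fit) of each named member of 16 gene lists, with the number of named members in brackets; filled points were called, open points were not, and the black bar is the list median. Called members of the chloroplast expression, assembly and vitamin lists all lie above 0, and those of the wall, iron, suberin and plastid-encoded lists all lie below 0.

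SCO3 sits at peroxisomes and microtubules, and genes of both were followed. Of all named genes 2.57% rose and 1.99% fell. None of 3 named genes of peroxisome formation and division was called (median -0.16), nor was any of 8 photorespiration genes (median 0.14), and without Col-0 replicate 3 the medians were -0.05 and -0.00. Few loci written for these lists were named, 3 of 38 and 8 of 24. Of 5 genes that break down fatty acids or run the glyoxylate cycle 1 rose. This was ICL, isocitrate lyase, which lets seedlings turn seed oil into sugar. It read 9.85, 9.76 and 10.24 in sco3, against 7.96, 8.07 and 9.35 in Col-0 (difference 1.49 ± 0.37, adjusted p = 0.0376), lies 105 measured genes past SCO3 and was called in 4 of 12 fits with an array left out. Among 13 tubulin and microtubule genes 12 had negative differences (median -0.19) and TUB1, a beta-tubulin, was called, at 5.87, 6.11 and 5.79 in sco3 and 6.71, 6.46 and 7.02 in Col-0 (difference -0.81 ± 0.20, adjusted p = 0.0409). TUB1 was not called without Col-0 replicate 3, without any one sco3 array, or with the 6 arrays alone.

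Transport, light and metabolic lists held 1 or 2 calls each. Of the 12 named genes of the nutrient list 2 were called, and both rose, where 2.57% of all named genes did. Both belong to the nitrate and peptide transporter family. AT1G68570 (NPF3.1) read 6.31, 6.18 and 5.84 in sco3, against 5.07, 4.35 and 3.53 in Col-0, 3.47-fold higher (difference 1.79 ± 0.36, adjusted p = 0.0164). AT3G21670 (NPF6.4) was at 8.94, 8.82 and 8.94 in sco3 and 8.10, 7.65 and 6.54 in Col-0 (difference 1.47 ± 0.28, adjusted p = 0.0124). The Col-0 arrays of both were spread over more than 1.5 units, and the sco3 arrays over less than 0.5. NPF6.4 lies 102 measured genes past SCO3. HYH, a close relative of the light-response factor HY5, read 7.82, 7.63 and 7.70 in sco3, against 7.12, 6.50 and 6.18 in Col-0 (difference 1.12 ± 0.23, adjusted p = 0.0205). It lies within 300 measured genes of SCO3 and was not called without any one sco3 array or with the 6 arrays alone. UGT78D2, which adds glucose to flavonols and anthocyanins, rose by 0.74 ± 0.15, and UGT71C1 of the same enzyme family fell by 1.28 ± 0.21. They were 2 of 51 named UDP-glycosyltransferases, near the 4.56% of all named genes that were called. QQS, known for shifting carbon between starch and protein, rose by 0.71 ± 0.11, and SWEET16, a vacuolar sugar transporter also within 300 measured genes of SCO3, fell by 1.03 ± 0.20. PDF1.4 of the plant defensin family, IAA20 of the auxin response family and AT2G31790 of the glucosinolate list rose by 1.06, 0.50 and 1.10, and the cytochrome P450 gene CYP71B26 fell by 0.64. None of the genes named so far in this paragraph was called with the 6 arrays alone. In all, 18 of the 45 lists with a named member held a call and 27 held none, among them the clock, cold, heat shock, glutathione S-transferase, seed storage and branched-chain amino acid lists. Some of these held few named genes, 2 for the clock and 1 for heat shock, so the lack of a call says little about those pathways.

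Whether the sco3 changes differ where PHYB is lost was asked with the interaction of the same fit. It called 1143 probe sets (5.03%) and 594 named genes (4.45%), and 1801 named genes (13.5%) were called between sco3phyb and phyb. Of the 51 genes called in both fits, 44 kept their sign between sco3phyb and phyb, 16 of the rises and 28 of the falls, and 25 were called there with the same sign. The change was smaller without PHYB in 42 of the 51, with median absolute log2 differences of 1.15 with PHYB and 0.56 without it. Genes chosen for a large change in the first pair of genotypes tend to show a smaller one in the second, so no attenuation is read from these medians. The difference itself was called for 19 of the 51, against 4.45% of all named genes. It contains the sco3 minus Col-0 change by which the 51 were chosen, so a raised share partly follows from that choice.

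Several genes fell alike in both backgrounds. AT3G19515 differed by -3.09 ± 0.18 with PHYB and by -2.61 ± 0.18 without it, AT3G16750 by -1.58 ± 0.12 and -1.48 ± 0.12, and AT5G05790 by -1.19 ± 0.18 and -1.08 ± 0.18. Differences between the effects were not called for these (limma adjusted p = 0.336, 0.825 and 0.86). CCS rose by 0.96 ± 0.14 with PHYB and by 1.17 ± 0.14 without it, and psbK fell by 0.79 and 0.97. F6'H1 fell in both, by 1.93 ± 0.27 and 1.01 ± 0.27, with the difference not called (adjusted p = 0.201).

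Others turned direction. AT3G16120 rose by 1.27 ± 0.18 with PHYB and fell by 0.76 ± 0.18 without it, a difference of 2.03 ± 0.25 (limma adjusted p = 0.000589), and AT1G72070 rose by 1.11 ± 0.24 and fell by 1.02 ± 0.24. ICL rose by 1.49 ± 0.37 and fell by 1.48 ± 0.37, and QQS rose by 0.71 ± 0.11 and fell by 1.13 ± 0.11. Cpn60beta2 behaved in the same way, at 1.20 ± 0.19 with PHYB and -0.76 ± 0.19 without it (difference 1.96 ± 0.27, adjusted p = 0.00112). psbT ran the other way, at -0.65 ± 0.16 and 0.59 ± 0.16. For the chloroplast lists the medians without PHYB were 0.17 for translation and folding and 0.19 for pentatricopeptide repeat proteins. Both lists were written after the sco3 and Col-0 values had been seen, so no attenuation is read from these medians. The difference was called for 2 of the 7 translation and folding genes that rose, Cpn60beta2 and AT5G55220, and for none of the 5 pentatricopeptide repeat genes. It was called for 4.45% of all named genes. The 7 and the 5 were chosen by a change that is part of this difference, so their counts are descriptions.

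**Figure D5:**
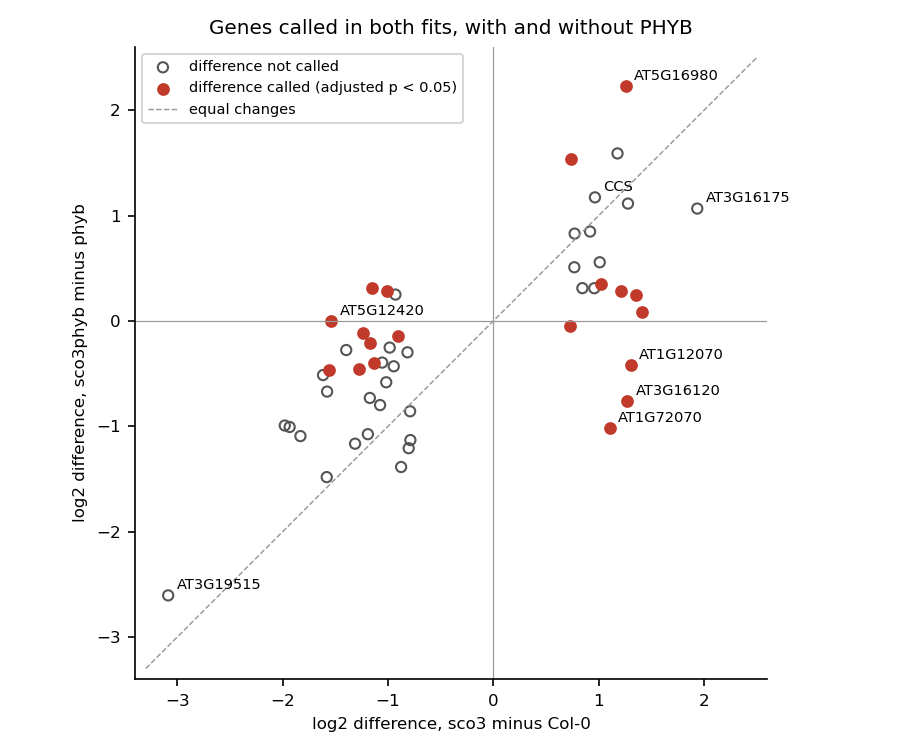
Log2 difference between sco3 and Col-0 (x axis, PHYB intact) and between sco3phyb and phyb (y axis, PHYB lost) for the 51 named genes called in both fits; filled points have a called difference between the changes and the dashed line marks equal changes. Of the 51 genes, 44 lie in the quadrants of equal sign, and AT3G16120, AT1G72070 and AT1G12070 are rises with PHYB that are below 0 without it.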

How the data were processed

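The deposited values are log2 RMA signals per ATH1 probe set, which the authors normalized together. The tools listed, per the submitters' processing notes, are RMA and Partek, without versions. Arrays have no read depth, and their number limits the precision. After 64 control probe sets were left out, 22746 were fitted with limma 3.58.1 in R 4.3.3 (lmFit, eBayes, 1 mean per genotype, all 12 arrays, 8 residual degrees of freedom), two-sided, with Benjamini-Hochberg adjustment over all probe sets. SE values are the moderated ones of this fit. Genes were named through the platform annotation and the TAIR10.1 gene table (13436 of 13513 probe sets matched), with the brightest probe set per gene. The members and lists were chosen with earlier results of these data known, and 7 of the 59 lists were written after values of this comparison were seen; list membership was written by locus or symbol from general knowledge, and 129 of 768 loci written were named in the first 52 lists. Genes are named by rule: called in both fits with no overlap, the 15 largest rises and falls, plus up to 6 called members per list or the 2 brightest where none is called. AT3G19520, AT2G24060, CRR21, PYE, Cpn60beta3, ndhK and psaA lie outside the rule and were chosen after their values were seen. On simulated data for this comparison over 22746 probe sets, 38.8%, 82.1% and 100% of genes changed by 1.5-, 2- and 4-fold were recovered, and 10 of 157 calls were false. The simulation gave all 12 arrays of a probe set the same spread. In the data Col-0 was noisier than phyb and sco3phyb, so these rates may not carry over. Replicates are biological per the labels. Alternatives were a 6-array fit, 1 variance per genotype, another variance prior, centring, quantile normalization, a filter on dim probe sets, a replicate block and leaving out each array.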

Additional observations from a re-analysis of the deposited data

Results flagged for a closer look

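For 20 of the genes named above that were called in sco3 against Col-0, the sco3 change with PHYB intact also differed from the change without PHYB by the interaction test (limma, adjusted p under 0.05). The values below are the change with PHYB minus the change without it, on the log2 scale. Negative values were those of AT5G12420 at -1.54, psbT at -1.25, AT1G36940 at -1.12, AT3G22970 at -1.10, AT5G16980 at -0.97 and bHLH121 at -0.82. AT5G16980 is in this set because it rose by 1.25 with PHYB and by 2.23 without it, whereas AT5G12420 fell by 1.54 with PHYB and differed by -0.00 without it. Small positive differences were those of AT3G51870 at 0.67, IAA20 at 0.76 and AT3G21300 at 0.93. AT1G15290 of the REC family stood at 1.11, GSA1 of tetrapyrrole synthesis at 1.13 and the flavonoid glucosyltransferase UGT78D2 at 1.28. AT3G44070 and AT5G55220 both had 1.33 and AT1G12070 had 1.73. The largest were QQS at 1.84, Cpn60beta2 at 1.96, AT3G16120 at 2.03, AT1G72070 at 2.13 and ICL at 2.98. The genes were chosen for their change in sco3 against Col-0, which is part of the interaction. Both the sign of a difference and the share called, against 4.45% of all named genes, therefore partly follow from that choice.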

How the results depend on the processing

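None of the 119 genes named by the rule changed sign with a call under the alternatives run, but many lost their call. With only the 6 sco3 and Col-0 arrays 42 lost it, and with 1 variance per genotype 24 did. Without sco3 replicate 1, 2 or 3 it was lost by 31, 27 and 29. The other alternatives took the call from 0 to 13 of these genes. The 1130 called probe sets became 117 with only the 6 sco3 and Col-0 arrays and 453 with 1 variance per genotype, and ranged from 396 (without sco3 replicate 3) to 1463 (without Col-0 replicate 2) over the fits that left out 1 array; without sco3 replicate 1 or 2 there were 488 and 526, without Col-0 replicate 3 859, and without sco3phyb replicate 3 745. Those also changed by at least 2-fold, 263, became 78 with the 6 arrays, and ranged from 157 to 465 with an array left out (435, 465 and 164 without Col-0 replicate 1, 2 and 3, and 168 without sco3 replicate 1). The interaction, 1143, ranged from 661 to 1582, with 661 without phyb replicate 3, 761 without phyb replicate 2, and 755 and 716 without sco3phyb replicate 2 and 3. Same-numbered replicates of sco3 and Col-0 correlated at 0.0758, 0.0570 and 0.104 in their deviations, and differently numbered ones at -0.118 to 0.0476. The same-numbered values were the higher ones but small, so they do not settle whether the numbers pair the arrays. With the replicate block 888 probe sets were called, 243 of them at least 2-fold, and the interaction called 1040. Centring called 1271, 857 of them higher. The promoter motif counts planned for this comparison were not run, because no promoter sequences were used here. Signals near the bottom of the range carry no detection call, so falls to about 2 or 3 may be bounds.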

Other observations

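Of the 609 named genes called, 86 carry a gene symbol, 43 higher and 43 lower in sco3. The genes in this paragraph were picked after their values were seen, and none but JAL22 and ALN was called with the 6 arrays alone. OSM34, an osmotin-like defence protein, had the second largest fall of all called named genes, at 6.65, 6.64 and 7.17 in sco3 against 8.53, 7.88 and 10.38 in Col-0 (log2 difference -2.11 ± 0.46, limma adjusted p = 0.0251). HDA15, a histone deacetylase near SCO3, read 5.52, 5.92 and 5.48 in sco3 and 6.75, 6.72 and 6.36 in Col-0 (difference -0.97 ± 0.14), and NAI2, needed for the ER bodies that hold a defence glucosidase, was at 9.12, 9.20 and 9.03 in sco3 and 9.84, 9.74 and 9.95 in Col-0 (difference -0.73 ± 0.12). Both fell between sco3phyb and phyb as well, by 0.51 and 1.17. JAL22, a jacalin-related lectin, and ALN, allantoinase, fell by 0.79 and 0.79.

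The rises in this paragraph, too, were picked after their values were seen from the 43 with a symbol, and none of them was called with the 6 arrays alone. PWD, an enzyme of starch breakdown, read 6.13, 5.83 and 5.98 in sco3, against 5.16, 5.07 and 4.33 in Col-0 (difference 1.13 ± 0.23, limma adjusted p = 0.0195). SPPA, a thylakoid protease, was at 8.42, 8.44 and 8.34 in sco3 and 7.90, 7.73 and 7.18 in Col-0 (difference 0.80 ± 0.16), and was higher in sco3phyb than in phyb by 0.76. LPA19, a photosystem II assembly factor, SAPX, the stromal ascorbate peroxidase, and CAF1, a chloroplast intron splicing factor, rose by 0.58, 0.45 and 0.79. MAP1C, a methionine aminopeptidase, rose by 1.0 and TRY, a repressor of trichome formation, by 0.93.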
